A study of Mus musculus with 6 samples.

Results

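The 10 voltage-gated calcium channel genes described here are 7 pore-forming alpha1 subunits (Cacna1a, Cacna1b, Cacna1c, Cacna1d, Cacna1e, Cacna1h and Cacna1i) and 3 auxiliary alpha2delta subunits (Cacna2d1, Cacna2d2 and Cacna2d3). They were taken by name from the 27998 genes of a single-cell table of mouse dorsal root ganglion neurons, the sensory neurons whose cell bodies lie beside the spinal cord, and all 10 had counts. Droplet libraries were made from 3 groups of 2 mice, each with 1 female and 1 male. The groups were Ttpa-/- mice given a vitamin E deficient diet (mice 654 and 657, aged 6 months), Ttpa-/- mice given a vitamin E supplemented diet (670 and 671, aged 6 months) and Ttpa+/+ wild type mice on a basal diet (698 and 699, aged 5 months). The product of Ttpa binds alpha-tocopherol, a form of vitamin E, in the liver and passes it to the blood. Age and basal diet go with genotype and cannot be told apart from it. The labels give neither the deleted part of Ttpa nor the strain.

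Voltage-gated calcium channels open when the membrane depolarises and let calcium into the cell. The alpha1 subunit forms the pore and sets the channel type: Cacna1c and Cacna1d form L-type channels, Cacna1a the P/Q type, Cacna1b the N type, Cacna1e the R type, and Cacna1h and Cacna1i, which open at more negative voltages, the T type. N-type and P/Q-type channels drive transmitter release at the terminals of sensory neurons in the spinal cord, and T-type channels tune how easily these neurons fire. The alpha2delta subunits raise the number of channels at the membrane, and Cacna2d1 and Cacna2d2 bind the gabapentinoid drugs.

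The genes lie apart in the genome (mm10, GENCODE M21), on chromosomes 1, 2, 5, 6, 8, 9, 14, 15 and 17, with Cacna2d3 and Cacna1d both on chromosome 14. RefSeq start-site windows (GRCm38.p6, 250 bases before to 50 after a start) were at hand for 8 of the 10, in 11 windows. Those of Cacna1i, Cacna1e and Cacna2d1 are shown because Cacna1i and Cacna1e were each found in few classes of neurons and Cacna2d1 in all of them. Capitals mark the GC box GGGCGG on either strand. It occurs 7 times in the Cacna2d1 window, 0 times in that of Cacna1i and 0 times in that of Cacna1e, and 35.7% of the 32851 windows of all genes hold it at least once.
Cacna1i (chr15:80286988-80287287, plus strand): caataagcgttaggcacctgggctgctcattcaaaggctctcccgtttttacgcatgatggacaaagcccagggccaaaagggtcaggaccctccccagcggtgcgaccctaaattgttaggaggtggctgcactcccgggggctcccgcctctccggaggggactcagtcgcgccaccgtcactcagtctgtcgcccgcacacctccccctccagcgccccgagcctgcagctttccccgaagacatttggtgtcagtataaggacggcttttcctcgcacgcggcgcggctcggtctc
Cacna1e (chr1:154725871-154726170, minus strand): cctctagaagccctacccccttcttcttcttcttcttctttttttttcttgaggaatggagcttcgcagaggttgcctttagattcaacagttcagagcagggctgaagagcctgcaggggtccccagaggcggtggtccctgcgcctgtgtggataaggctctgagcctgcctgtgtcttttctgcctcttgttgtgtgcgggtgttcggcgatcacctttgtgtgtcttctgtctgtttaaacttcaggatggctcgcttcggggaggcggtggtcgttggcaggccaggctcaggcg
Cacna2d1 (chr5:15934441-15934740, plus strand): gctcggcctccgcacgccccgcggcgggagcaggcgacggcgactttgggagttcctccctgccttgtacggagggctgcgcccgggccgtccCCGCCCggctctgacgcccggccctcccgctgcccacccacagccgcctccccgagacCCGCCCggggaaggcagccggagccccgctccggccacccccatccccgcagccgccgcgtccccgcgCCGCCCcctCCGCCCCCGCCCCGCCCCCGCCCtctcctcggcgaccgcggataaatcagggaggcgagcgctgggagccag
The G and C content is 62.7% in the Cacna1i window, 55.3% in the Cacna1e window and 80.0% in the Cacna2d1 window, against a median of 52.7% over all windows. The Cacna1b window (72.3% G and C) holds the GC box 3 times, the Cacna2d3 window 6 times and the Cacna2d2 window 1 time. Of the windows of Cacna1c and of Cacna1d, 1 each holds it 6 times and the others 0 times. The motif TATAAA, which 13.6% of all windows hold on either strand, occurs in 1 of the 2 windows of Cacna1d, 3 times, and in none of the other 10. The Cacna1e window lies inside the gene as GENCODE draws it, at a RefSeq start downstream of the outermost one. These counts describe letters in a window and not sites in use.

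After filters and removal of doublets, 21024 of 21685 cells were kept, and 20588 carried at least 4 of 7 pan-neuronal markers, as their label says they should. Neurons had 11901907 to 18639583 unique molecular identifiers (UMIs, 1 per captured RNA molecule) per mouse. Levels are given as CPM, the UMIs of a gene per 1000000 UMIs of a mouse's summed cells. Each molecule is read at its 3′ end, so gene length does not enter, but how well a 3′ end is captured differs between genes. Neurons were sorted into 13 classes by UMI gates on marker genes, each class named by its leading gate gene, which put 11900 neurons (57.8%) in 1 class. That share was 52.0 and 69.8% in deficient mice, 42.5 and 57.4% in supplemented mice and 65.1 and 64.8% in wild type mice. Another 8675 neurons passed no gate and 13 passed more than 1. A total of 261 cell barcodes occurred in more than 1 library (522 cells). Ttpa had 4, 5, 1 and 4 UMIs in neurons of mice 654, 657, 670 and 671, all labelled Ttpa-/-, and 0 in both wild type mice. Those few 3′ reads do not check the genotype, since the deleted part is not given. Xist and Ddx3y matched the labelled sex in 6 of 6 mice.

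The gates used known marker genes of mouse sensory neurons and no calcium channel gene. Mrgprd and Lpar3 mark non-peptidergic nociceptors, Mrgpra3 and Sst with Nppb mark populations linked to itch, and Th with Slc17a8 and Fam19a4 marks C-fibre low-threshold mechanoreceptors. Adcyap1 with Tac1, Chrna3 with Tac1 and Fgg with Tac1 mark peptidergic nociceptors, and Kit with Nefh marks peptidergic neurons with myelinated fibres. Pvalb with Runx3 marks proprioceptors, Ntrk2 with Cadps2 marks A-delta low-threshold mechanoreceptors, and Calb1 with Nefh and Ntrk3 with Nefh mark other large-fibre neurons. Between 4.84 and 70.2% of a class's cells held just the UMIs its gate asks for. The Foxp2 class is named by its gene alone, since Trpm8, the cold receptor sought beside it, was at 14.9 CPM there. Classes held 67 (Foxp2) to 2651 cells (Th), and the 11 with 20 or more cells in every mouse were tested. The Foxp2 and Chrna3 classes were not, with 5 and 19 cells in their smallest mouse.

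**Figure D1:**
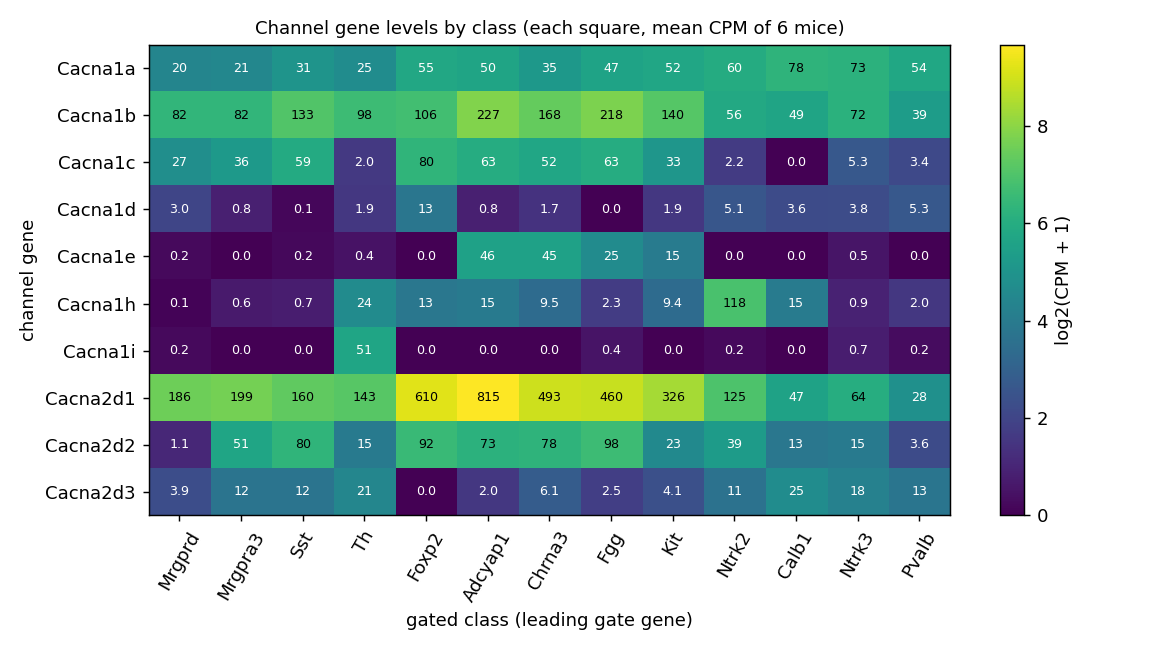
Mean level of each channel gene in each class, in CPM over 6 mice (printed in the squares), coloured by log2(CPM + 1). Rows are genes and columns are classes. Cacna1i stands at 51 CPM in the Th class and under 1 CPM in every other class, and Cacna2d1 reaches 815 CPM in the Adcyap1 class.

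Among gated neurons, Cacna1i, a T-type pore, was found almost wholly in the Th class. It stood at 55.5 and 44.1 CPM in deficient mice, 56.9 and 56.2 CPM in supplemented mice and 42.1 and 49.4 CPM in wild type mice. Both supplemented mice lay above the other 4, and the deficient and wild type mice overlapped. Over all genes with 100 or more UMIs in a class, supplemented and wild type mice did not overlap in 30.7% of cases. Deficient and supplemented mice did not overlap in 31.0%. The Cacna1i mean in the Th class was 50.7 ± 6.48 CPM (SD, n = 6 mice), and the next class, Ntrk3, had 0.727 ± 1.19 CPM. Of the 642 Cacna1i UMIs in gated neurons, 634 lay in the Th class, which held 22.3% of gated cells. All neurons held 903 Cacna1i UMIs, and the rest of these lay in neurons not placed in 1 class. Against all other gated neurons of the same mice, the log2 difference of the Th class was 8.19 ± 0.20 (SE, edgeR, adjusted p = 1.46e-25, higher in 6 of 6 mice). Cacna1i passed the low-count filter of this fit only through the Th class, where it is high. That p therefore gives no support beyond the UMI counts. Here and below, log2 differences are given ± SE from the fit and levels ± SD over the 6 mice. At least 1 UMI was seen in 555 of 2651 Th cells (20.9%, exact 95% interval 19.4 to 22.5%, median depth 4358 UMIs). In the Adcyap1 class 0 of 1993 cells had one, which allows up to 0.151% of cells with a UMI (3 counts of the total), at a median depth of 2317 UMIs. Thinned to 2000 UMIs per cell, 10.9% of 2554 Th cells and 0 of 1386 Adcyap1 cells had a UMI. The Th level was at least 89.4-fold higher than that of the Adcyap1 class, taking 3 UMIs over the 6 mice as the floor of a class with none. Intervals and floors cover counting error only.

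Cacna1h, the other T-type pore, peaked in the Ntrk2 class. It reached 116 and 128 CPM in deficient mice, 134 and 113 CPM in supplemented mice and 83.9 and 131 CPM in wild type mice there, and 1 wild type mouse stood below the other 5. The class mean was 118 ± 18.5 CPM. The Th class came next with 24.2 ± 5.11 CPM, and the ranges of the 6 mice did not overlap between these 2 classes. Calb1 (15.1 ± 7.71 CPM), Adcyap1 (14.5 ± 7.71 CPM), Chrna3 (9.50 ± 7.68 CPM) and Kit (9.39 ± 2.08 CPM) neurons had lower levels, with overlap between neighbours in the order. Only 1 UMI was counted in 1627 Mrgprd neurons, 3 in 475 Ntrk3 neurons and 4 in 797 Mrgpra3 neurons. Against all other gated neurons the Ntrk2 class was higher by 3.83 ± 0.13 (adjusted p = 1.63e-26) on the log2 scale and the Th class by 1.16 ± 0.14 (adjusted p = 8.31e-09). A UMI was found in 48.4% of Ntrk2 cells (exact 95% interval 44.2 to 52.7%) and in 0.632% of Ntrk3 cells, whose median depths were 5973 and 8140 UMIs. Tpsg1 lies on the other strand over the last 5000 bases of Cacna1h, and Chdh likewise over those of Cacna1d. No source used here says whether counting used strand.

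**Figure D2:**
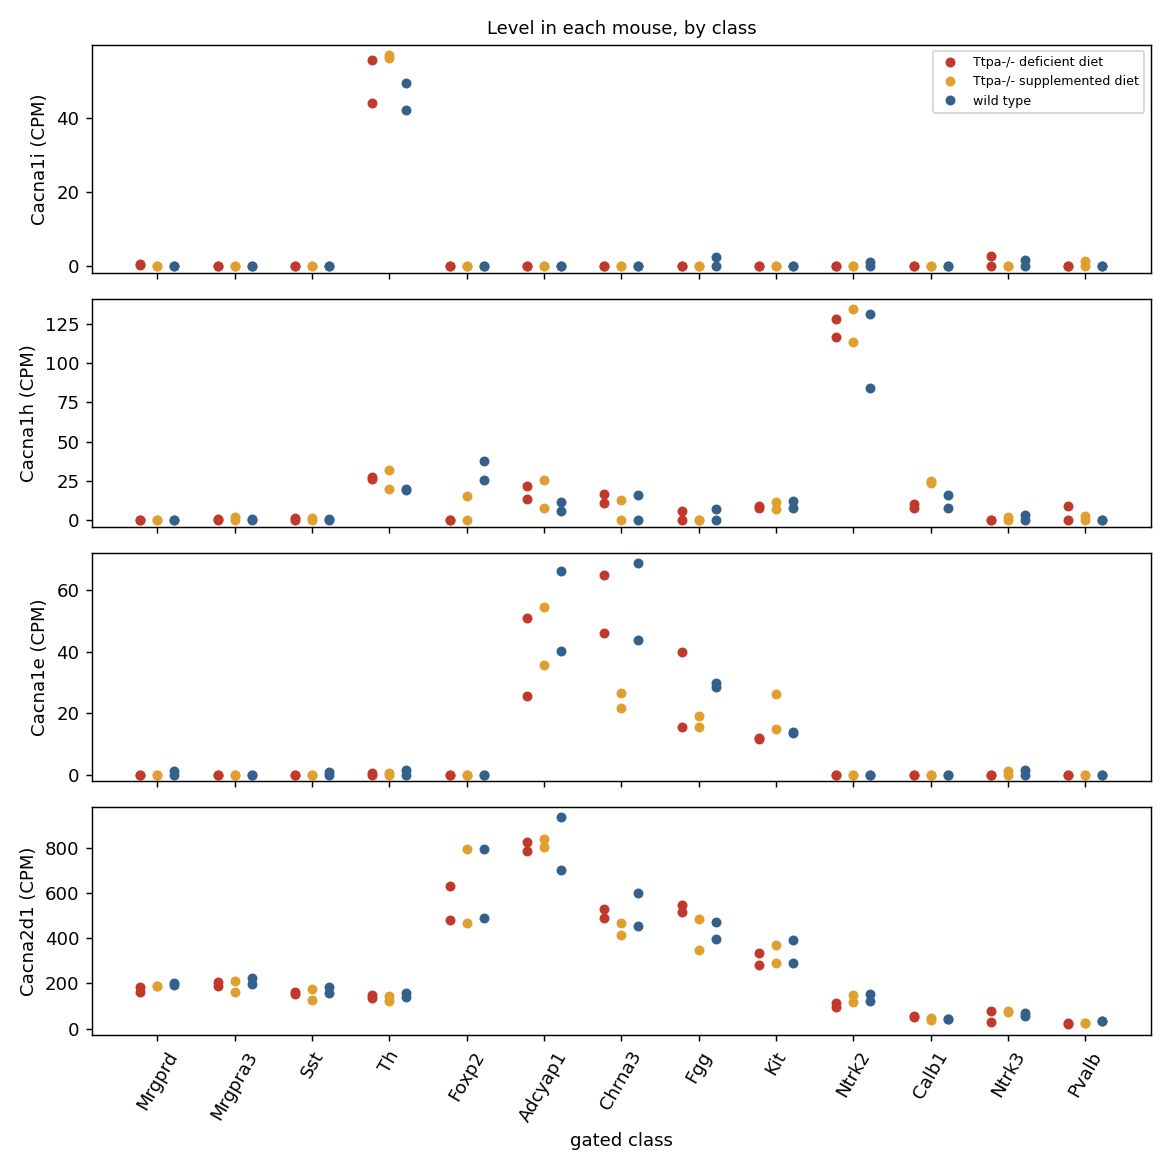
Level of Cacna1i, Cacna1h, Cacna1e and Cacna2d1 (CPM, linear axes) in each class, 1 point per mouse, coloured by group. In the Th class Cacna1i lies between 42.1 and 56.9 CPM in all 6 mice, and in the Ntrk2 class Cacna1h lies between 83.9 and 134 CPM.

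Among gated neurons, Cacna1e, the R-type pore, was found mostly in the classes gated on Tac1 and on Kit. The Adcyap1 class alone held 255 of its 417 UMIs in gated neurons. All neurons held 793 Cacna1e UMIs, and the rest of these lay in neurons not placed in 1 class. In the Adcyap1 class Cacna1e stood at 25.6 and 50.8 CPM in deficient mice, 35.7 and 54.6 CPM in supplemented mice and 40.4 and 66.4 CPM in wild type mice. These groups overlapped, with the lowest value in a deficient and the highest in a wild type mouse. Means were 45.6 ± 14.6 CPM in the Adcyap1, 45.3 ± 19.2 CPM in the Chrna3, 24.7 ± 9.73 CPM in the Fgg and 15.3 ± 5.50 CPM in the Kit class. Neighbours in that order had overlapping ranges, down to the gap between Kit and the next class, Ntrk3 (0.468 ± 0.733 CPM). No Cacna1e UMI was counted in the Mrgpra3, Foxp2, Pvalb, Ntrk2 or Calb1 class, and 1 to 5 UMIs each in the Sst, Mrgprd, Ntrk3 and Th classes. The Adcyap1 level was at least 87.6-fold higher than that of the Mrgpra3 class. Against all other gated neurons it was higher by 4.05 ± 0.17 (adjusted p = 1.26e-21) on the log2 scale. Thinned to 2000 UMIs, 10.5% of Adcyap1 cells and 0 of 776 Mrgpra3 cells had a UMI.

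Cacna1b, the N-type pore, was found in every class, and most in those gated on Tac1. Its level in the Adcyap1 class was 248 and 234 CPM in deficient mice, 202 and 210.2 CPM in supplemented mice and 274 and 197 CPM in wild type mice. Both deficient mice lay above both supplemented mice, and the wild type mice overlapped both groups. Deficient and supplemented mice did not overlap in 31.0% of cases over all genes with 100 or more UMIs in a class. Means were 227 ± 30.3 CPM in the Adcyap1, 218 ± 17.5 CPM in the Fgg, 168 ± 56.3 CPM in the Chrna3, 139.6 ± 18.9 CPM in the Kit and 133 ± 15.1 CPM in the Sst class. The Pvalb class was lowest at 39.3 ± 6.87 CPM, next to the Calb1 (49.4 ± 6.58 CPM) and Ntrk2 classes (55.6 ± 11.8 CPM), and these 3 overlapped. Without wild type mouse 698 the Fgg class came first. On the log2 scale the Adcyap1 class was above all other gated neurons by 1.22 ± 0.066 (adjusted p = 5.68e-18) and the Pvalb class differed by -1.60 ± 0.12 (adjusted p = 1.59e-16).

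Cacna1a, the P/Q-type pore, was highest in the Calb1, Ntrk3 and Ntrk2 classes and had its lowest mean in the Mrgprd class. In the Calb1 class it had 82.5 and 55.1 CPM in deficient mice, 99.7 and 75.2 CPM in supplemented mice and 76.3 and 80.6 CPM in wild type mice, with the lowest value in a deficient and the highest in a supplemented mouse, and the groups overlapped. The means were 78.2 ± 14.4 CPM in Calb1, 72.8 ± 8.94 CPM in Ntrk3 and 60.1 ± 17.8 CPM in Ntrk2 neurons, which overlapped each other, and 20.4 ± 6.39 CPM in Mrgprd, 21.4 ± 5.93 CPM in Mrgpra3 and 25.3 ± 5.11 CPM in Th neurons. The Mrgprd and Mrgpra3 ranges overlapped, and Mrgpra3 was higher in 3 of the 6 mice. Against all other gated neurons the Ntrk3 class was higher by 1.06 ± 0.11 (adjusted p = 1.30e-09) and the Mrgprd class differed by -0.77 ± 0.12 (adjusted p = 2.67e-06), log2. Across the 13 class means, Cacna1a and Cacna1b had a Pearson r of -0.22 on log2(CPM + 1), given as a description, since the classes share libraries.

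The L-type pores differed in how much of them was counted. Cacna1c, also the pore of heart and smooth muscle L-type channels, had 79.7 ± 58.5 CPM in the Foxp2 class, which rests on 67 cells, 62.8 ± 11.3 CPM in the Fgg class, 62.5 ± 10.6 CPM in the Adcyap1 class and 59.1 ± 6.72 CPM in the Sst class. These classes overlapped, and without mouse 654, 657 or 698 the Adcyap1 class stood above the Fgg class. The Mrgprd class had 26.6 ± 2.19 CPM and the Ntrk3 class 5.29 ± 2.38 CPM, with no overlap between those 2. Per mouse the Fgg class had 72.7 and 64.5 CPM in deficient mice, 44.1 and 55.6 CPM in supplemented mice and 74.3 and 65.3 CPM in wild type mice, and both supplemented mice lay below the other 4. Over all genes with 100 or more UMIs in a class, supplemented mice did not overlap wild type mice in 30.7% of cases and deficient mice in 31.0%. The Th class had 2.02 ± 0.610 CPM, and the Calb1 class had 0 UMIs in 333 cells. The Fgg class was at least 51.4-fold higher than the Calb1 class. On the log2 scale the Th class differed from all other gated neurons by -3.75 ± 0.18 (adjusted p = 4.12e-18) and the Sst class by 1.49 ± 0.11 (adjusted p = 3.98e-16). Cacna1d had only 200 UMIs in all neurons (1.67 to 2.68 CPM over the mice), had its highest mean among the 11 classes with enough cells in the Pvalb class (5.27 ± 4.26 CPM), or in the Ntrk2 class without mouse 670 or 698, and was too low for the fit against the mean of the other classes.

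Cacna2d1, the alpha2delta subunit with the most UMIs here, was highest in the Adcyap1 class, at 786 and 826 CPM in deficient mice, 803 and 838 CPM in supplemented mice and 934 and 701 CPM in wild type mice. The wild type pair spanned the values of the other 4 mice. Means were 815 ± 76.0 CPM in the Adcyap1, 609.7 ± 154 CPM in the Foxp2, 493 ± 66.1 CPM in the Chrna3, 460.1 ± 75.3 CPM in the Fgg and 326 ± 46.7 CPM in the Kit class. The Pvalb class was lowest at 28.0 ± 5.14 CPM, and its range lay below that of the next lowest, Calb1 (46.7 ± 7.19 CPM). Against all other gated neurons the Adcyap1 class was higher by 2.17 ± 0.057 (adjusted p = 2.82e-27) and the Pvalb class differed by -3.19 ± 0.12 (adjusted p = 1.19e-28), log2. A UMI was found in 83.0% of Adcyap1 cells and 11.1% of Pvalb cells, although the Pvalb cells were deeper (median 4262 against 2317 UMIs).

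Cacna2d2 was high in the Fgg class (104 and 95.3 CPM in deficient mice, 101 and 83.4 CPM in supplemented mice and 104 and 99.4 CPM in wild type mice), where the groups overlapped, and nearly missing from Mrgprd neurons (0.856 and 0.938 CPM in deficient mice, 1.76 and 1.72 CPM in supplemented mice and 1.38 and 0 CPM in wild type mice). Its means were 97.8 ± 7.75 CPM in Fgg, 79.6 ± 13.0 CPM in Sst, 73.3 ± 8.39 CPM in Adcyap1, 50.6 ± 6.09 CPM in Mrgpra3 and 1.11 ± 0.662 CPM in Mrgprd neurons. The Mrgprd class differed from all other gated neurons by -4.88 ± 0.21 (adjusted p = 3.99e-18) and the Sst class by 1.75 ± 0.10 (adjusted p = 1.58e-19), log2. Cacna2d3, an alpha2delta subunit studied in fly and mouse for heat nociception, was spread in another way. It had 24.7 ± 6.58 CPM in Calb1, 20.9 ± 2.05 CPM in Th and 18.0 ± 3.88 CPM in Ntrk3 neurons, which overlapped, and 1.98 ± 1.56 CPM in Adcyap1 and 2.47 ± 3.89 CPM in Fgg neurons. Per mouse the Th class had 22.4 and 21.7 CPM in deficient mice, 21.1 and 16.8 CPM in supplemented mice and 21.5 and 21.8 CPM in wild type mice, with 1 supplemented mouse below the other 5. The Th class was higher than all other gated neurons by 1.37 ± 0.13 (adjusted p = 1.03e-10) and the Adcyap1 class differed by -2.57 ± 0.33 (adjusted p = 2.00e-08), log2.

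Each pore's share of the pore UMIs shifted with the class. Cacna1b made up 61.6% of them in Mrgprd and 61.5% in Fgg neurons but 24.0% in Ntrk2 neurons. Cacna1a held 52.6% (40.8 to 61.0% over mice) in Pvalb and 12.4% (10.9 to 14.8%) in Th neurons. The T-type pore Cacna1h held 48.6% in Ntrk2 neurons (40.2 to 59.0% over mice). In Th neurons Cacna1i held 24.5% (20.8 to 28.0%) and Cacna1h 11.9%. Among alpha2delta UMIs, Cacna2d1 held 97.4% in Mrgprd and 55.9% in Calb1 neurons. Cacna2d3 held 31.8% in Calb1 (lowest mouse 20%, highest 39.4%) and 0.232% in Adcyap1 neurons. Across the 13 class means, Cacna1b followed Cacna2d1 (r = 0.88), as did Cacna1c (r = 0.82), and Cacna1e followed Cacna1b (r = 0.81), while Cacna2d1 and Cacna2d3 ran apart (r = -0.79), as a description over classes of the same libraries.

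**Figure D3:**
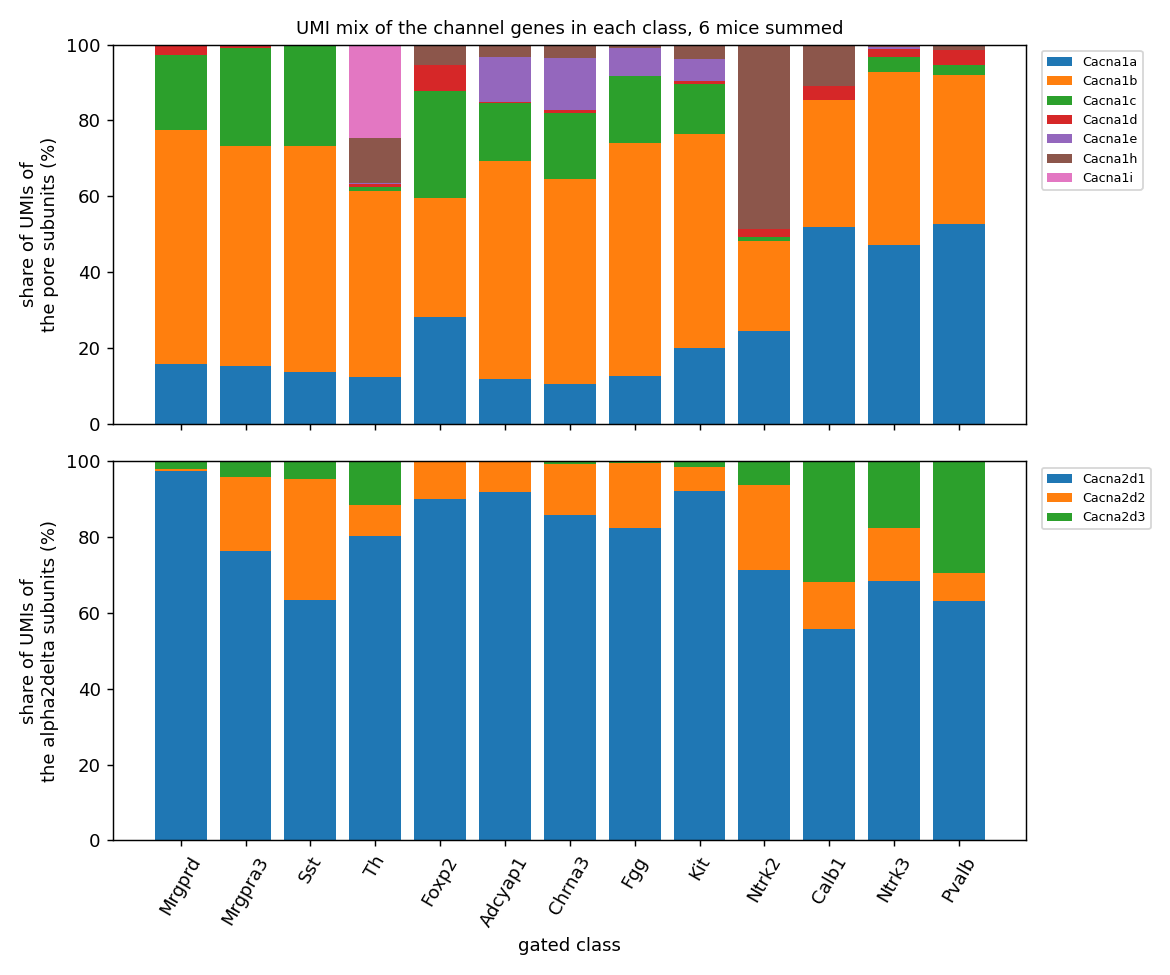
Share (%) of the UMIs of the 7 pore subunits (top) and of the 3 alpha2delta subunits (bottom) held by each gene in each class, 6 mice summed. Cacna1h holds 48.6% of the pore UMIs in the Ntrk2 class, and Cacna1i 24.5% in the Th class.

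In the fit of 1 class against the mean of the other 10 (edgeR on 9356 genes, with the mouse as a term and adjusted p under 0.05), 9 of the 10 members were tested. Members called were 6 in Mrgprd (2 higher and 4 lower, against 76.9% of all genes called, 39.0% higher and 37.9% lower) and 6 in Mrgpra3 (4 higher and 2 lower, against 62.9% of all genes called, 33.2% higher and 29.7% lower). Among the other small-fibre classes they were 7 in Sst (5 higher and 2 lower, against 65.5% of all genes called, 34.6% higher and 30.9% lower) and 6 in Th (4 higher and 2 lower, against 73.1% of all genes called, 40.3% higher and 32.8% lower). The peptidergic classes had 7 in Adcyap1 (6 higher and 1 lower, against 62.3% of all genes called, 38.0% higher and 24.4% lower), 6 in Fgg (5 higher and 1 lower, against 43.2% of all genes called, 25.1% higher and 18.1% lower) and 6 in Kit (5 higher and 1 lower, against 46.7% of all genes called, 27.3% higher and 19.5% lower). The large-fibre classes had 5 in Pvalb (1 higher and 4 lower, against 66.1% of all genes called, 35.5% higher and 30.6% lower) and 5 in Ntrk2 (3 higher and 2 lower, against 53.5% of all genes called, 30.2% higher and 23.2% lower). The last pair had 7 in Calb1 (3 higher and 4 lower, against 62.1% of all genes called, 33.0% higher and 29.1% lower) and 6 in Ntrk3 (2 higher and 4 lower, against 57.1% of all genes called, 31.7% higher and 25.5% lower). Most genes differed between classes, and shares of 9 genes near these background values are no result about the members. Cacna1c, Cacna1e and Cacna1i had no UMI in 1 or more classes, for which this fit gives no usable mean. The fold values given for each gene are therefore from the second fit, against the summed UMIs of all other gated neurons, added after the data were seen, which called 88 of the 99 pairs of member and class tested in both fits, against 40.8 to 71.5% of all genes over the 11 classes. Both fits called 58 pairs, 56 of them in the same direction.

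Ordered by level, the 13 classes give 120 neighbouring pairs over the 10 genes, some of them (of Cacna1e and Cacna1i) with no UMI in either class. An exact two-sided sign-flip test over 6 mice cannot go below p = 0.03125. Over 120 pairs, an adjusted p under 0.05 would need most pairs to stand at that floor, so this test could hardly call any pair. The smallest adjusted p was 0.188 and no neighbouring pair passed, from which nothing follows about the order. In 10 pairs the ranges of the 6 mice did not overlap, among them Cacna1i between Th and Ntrk3, Cacna1h between Ntrk2 and Th, and Cacna2d1 between Kit and Mrgpra3 (326 against 199 CPM).

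The remaining subunits of the channels were taken from lists. Cacna1f, Cacna1g, Cacna1s and Cacna2d4 had 13 UMIs together in neurons, 2 to 5 each. Of 12 beta and gamma subunits 7 were tested between classes. Cacnb4, a beta subunit that helps bring pores to the membrane, stood at 309 ± 41.7 CPM in Ntrk3 and 3.00 ± 1.89 CPM in Sst neurons, whose log2 difference from the mean of the other classes was -5.58 ± 0.17 (adjusted p = 2.65e-55). Cacnb3, another beta subunit, stood at 85.5 ± 12.6 CPM in the Sst class. Cacng5, a gamma subunit known as a partner of AMPA receptors, had 59.5 ± 10.3 CPM in Pvalb and 0.174 ± 0.273 CPM in Mrgprd neurons. These 3 were chosen for their levels by class after the values were seen. Over the 11 classes, 5 to 14 of the 18 tested channel modulators were higher and 0 to 11 lower. Of 14 tested genes of calcium stores, pumps and entry, 2 to 9 were higher and 0 to 9 lower. Of all genes, 25.1 to 40.3% were higher and 18.1 to 37.9% lower in these fits. The modulators were most uneven in the Kit class, chosen after the values were seen, with 14 higher and 0 lower, where 27.3% of all genes were higher and 19.5% lower.

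Between the groups, none of the 10 genes passed the test in neurons as a whole, in any of the 3 comparisons, and 0.0% of all 13397 genes did. In edgeR 514 genes had an unadjusted p under 0.05 for deficient against wild type mice, 505 for supplemented against wild type and 331 for deficient against supplemented, and limma-voom called 0 in each. DESeq2 called 2, 11 and 0 genes in these comparisons, none of them a member. Of the 10 genes, 1 had an unadjusted p under 0.05 against wild type with the deficient diet, the same 1 (Cacna1e) with the supplemented diet, and 0 between the diets. The genes' log2 differences ran from -0.68 to 0.16 for deficient against wild type mice, with a median of -0.0090 against 0.0056 over all genes. Both comparisons with wild type share the same 2 control mice. Fewer cells of a class and less RNA per cell cannot be told apart in sums over all neurons.

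Cacna2d1 had 250.0 and 267 CPM in deficient mice, 250.3 and 282 CPM in supplemented mice and 318 and 239.8 CPM in wild type mice over all neurons, so the wild type mice stood on either side of the rest. Cacna1b had 115 and 113 CPM in deficient mice, 110.2 and 113 CPM in supplemented mice and 121 and 109 CPM in wild type mice. Cacna2d2 varied least of the 10 relative to its mean, at 33.1 and 31.5 CPM in deficient mice, 32.7 and 32.7 CPM in supplemented mice and 31.7 and 33.1 CPM in wild type mice. The groups of these 3 genes overlapped against wild type, and the deficient minus wild type log2 differences were -0.11 ± 0.16, -0.016 ± 0.12 and -0.0019 ± 0.13 (SE), with adjusted p of 0.990, 0.996 and 0.99955 in edgeR. Cacna1a had 39.1 and 30.9 CPM in deficient mice, 39.2 and 46.0 CPM in supplemented mice and 32.8 and 42.1 CPM in wild type mice. Cacna1c lay at 27.0 to 30.3 CPM, Cacna1h at 11 to 14.4 CPM, Cacna1i at 8.70 to 11.9 CPM, Cacna2d3 at 8.65 to 11.5 CPM and Cacna1d at 1.67 to 2.68 CPM over the 6 mice. Of the 10 genes, 0 were higher and 1 lower without overlap for deficient against wild type mice (31.4% of all genes with 100 or more UMIs). For supplemented against wild type mice 1 was higher and 2 lower (all genes 27.6%). For deficient against supplemented mice 2 were higher and 3 lower (all genes 33.4%).

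**Figure D4:**
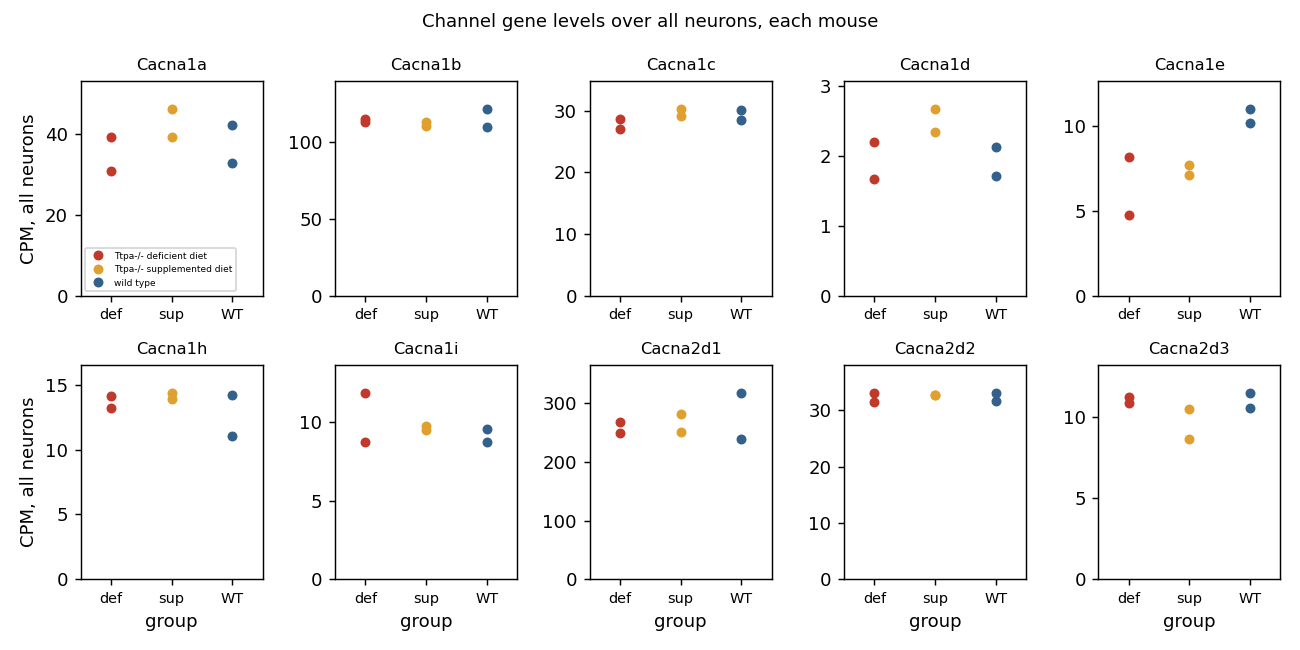
Level of each of the 10 genes over all neurons (CPM, axes start at 0), 1 point per mouse, for deficient Ttpa-/- (def), supplemented Ttpa-/- (sup) and wild type (WT) mice. Cacna1e is the gene with the smallest p, and both groups of Ttpa-/- mice lie below both wild type mice.

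Cacna1e, the R-type pore, had 4.79 and 8.19 CPM in deficient mice, 7.14 and 7.71 CPM in supplemented mice and 11 and 10.2 CPM in wild type mice over all neurons. All 4 Ttpa-/- mice lay below both wild type mice. The log2 difference was -0.68 ± 0.23 for deficient against wild type mice (edgeR, adjusted p = 0.990) and -0.54 ± 0.23 for supplemented against wild type (adjusted p = 0.99997), and neither passed. Among all genes with 100 or more UMIs, both deficient mice lay below both wild type mice for 15.2%, and both supplemented mice for 10.1%. The deficient value was -0.37 without mouse 654 and -1.17 without mouse 657. The Adcyap1 class, which holds most gated Cacna1e UMIs, made up 7.43 and 11.5% of neurons in deficient, 5.41 and 9.29% in supplemented and 14.5 and 11.2% in wild type mice. Mice 654 and 670 had the lowest such shares, the lowest shares of neurons in any 1 class (52.0 and 42.5%) and the lowest median UMIs per cell (2856 and 2499.5). The part of gating and depth in the class share was not tested. In the Adcyap1 class 44.9% of cells held just the UMIs its gate asks for. Within that class the groups overlapped, with a log2 difference of -0.40 ± 0.29 for deficient against wild type (adjusted p = 0.999 in edgeR). With 1 mouse left out that difference ran from -1.11 (without deficient mouse 657) to -0.0049 (without wild type mouse 699). The part of the class share in the level over all neurons was not tested.

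Within the 11 tested classes, 59 tests of a member could be made in each comparison, and none passed. Over all genes and classes 0.0394% of tests were called for deficient against wild type mice, 0.0628% for supplemented against wild type and 0.0172% for deficient against supplemented. By class, the share of genes called for deficient against wild type was 0.0219% in Mrgprd, 0.0386% in Mrgpra3, 0.0399% in Sst, 0.097% in Adcyap1, 0.0573% in Fgg, 0.0275% in Kit, 0.0593% in Ntrk2, 0.0506% in Calb1, 0.0571% in Ntrk3 and 0% in Th and Pvalb. For supplemented against wild type it was 0.11% in Mrgprd, 0.0266% in Sst, 0.133% in Adcyap1, 0.153% in Fgg, 0.055% in Kit, 0.0422% in Pvalb, 0.0741% in Ntrk2, 0.0169% in Calb1, 0.1% in Ntrk3 and 0% in Mrgpra3 and Th. For deficient against supplemented it was 0.0219% in Mrgprd, 0.0121% in Adcyap1, 0.0765% in Fgg, 0.0275% in Kit, 0.0506% in Calb1, 0.0286% in Ntrk3 and 0% in Mrgpra3, Sst, Th, Pvalb and Ntrk2. An unadjusted p under 0.05 was reached in 2 of the 59 tests for deficient against wild type, 1 for supplemented against wild type and 4 for deficient against supplemented. For members with 100 or more UMIs in a class, the mice of the groups did not overlap in 15 of 49 tests for deficient against wild type (all genes 30.1%). They did not overlap in 14 of 49 for supplemented against wild type (all genes 30.7%) and 19 of 49 for deficient against supplemented (all genes 31.0%).

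The member with the smallest p against wild type was Cacna1a in the Mrgprd class, at 26.1 and 23.1 CPM in deficient mice, 18.2 and 28.0 CPM in supplemented mice and 15.1 and 11.8 CPM in wild type mice. All 4 Ttpa-/- mice lay above both wild type mice, which partly follows from choosing the smallest p. Over all genes with 100 or more UMIs in a class, deficient and wild type mice did not overlap in 30.1% of cases. Supplemented and wild type mice did not overlap in 30.7%. The log2 difference of Cacna1a in the Mrgprd class was 0.82 ± 0.26 for deficient (adjusted p = 0.999) and 0.78 ± 0.27 for supplemented against wild type mice (adjusted p = 0.657, edgeR). Without supplemented mouse 671 the second was 0.36, and in clusters made without channel genes the first was 0.54. Over all neurons the deficient and wild type values of Cacna1a overlapped. Markers of satellite glia, 6 genes summed, stood in the Mrgprd class at 119.8 and 91.0 CPM in deficient, 227 and 214 CPM in supplemented and 158 and 148 CPM in wild type mice, and their part in the result was not tested. Between the diets the smallest p was that of Cacna1c in the Kit class, at 19.3 and 23.0 CPM in deficient mice, 45.0 and 50.2 CPM in supplemented mice and 26.9 and 33.3 CPM in wild type mice, with a log2 difference of -1.12 ± 0.36 for deficient against supplemented mice (adjusted p = 0.923, edgeR). In clusters made without channel genes it was -0.45.

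**Figure D5:**
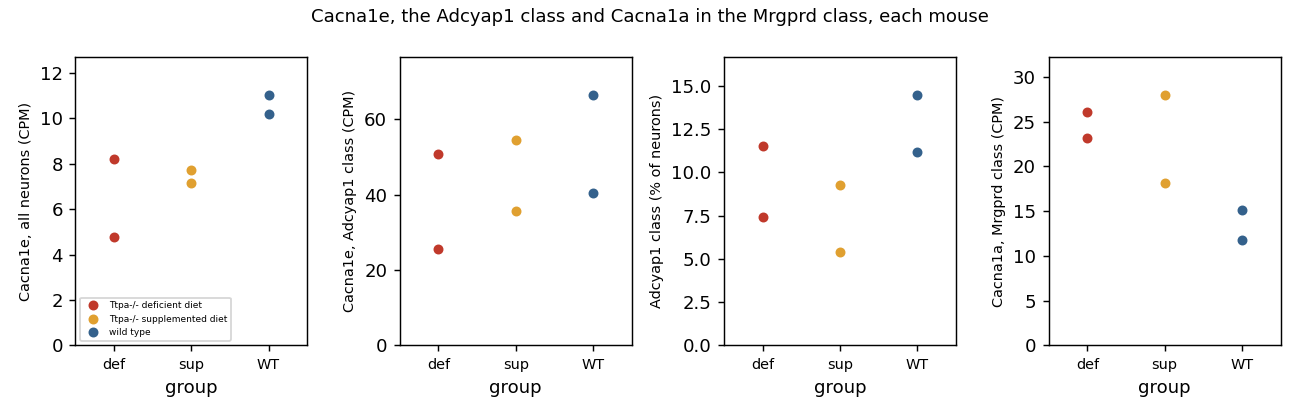
From left to right, Cacna1e over all neurons (CPM), Cacna1e in the Adcyap1 class (CPM), the Adcyap1 class as a share of neurons (%) and Cacna1a in the Mrgprd class (CPM), 1 point per mouse, for deficient (def), supplemented (sup) and wild type (WT) mice. Cacna1e over all neurons lies at 4.79 to 8.19 CPM in Ttpa-/- mice, under both wild type mice, and overlaps between the groups within the Adcyap1 class.

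No gene of the 3 lists with tested genes passed between groups either. Of 12 beta and gamma subunits 10 were tested in neurons, and the smallest p for deficient against wild type was that of Cacng4, a gamma subunit, with a log2 difference of 0.71 ± 0.45 (adjusted p = 0.990). For supplemented against wild type mice Cacng4 had 0.99 ± 0.44 (adjusted p = 0.99997). Among 22 tested channel modulators, Klhl1, which raises T-type currents, had -1.06 ± 0.40 (adjusted p = 0.990) for deficient and Snap25, the release protein that binds presynaptic channels, -0.38 ± 0.17 (adjusted p = 0.99997) for supplemented against wild type mice. Among 19 tested genes of stores, pumps and entry, Ryr1, a calcium release channel, had 0.90 ± 0.41 (adjusted p = 0.990) for deficient and Atp2a3, a pump of the endoplasmic reticulum, -1.13 ± 0.43 (adjusted p = 0.99997) for supplemented against wild type mice, all from edgeR. Between the diets Stac3, an adaptor of L-type channels, had the smallest p of the lists, with 1.10 ± 0.45 (adjusted p = 0.999). The other genes that the rule on p names (Cacnb2, Cacng8, Cacng2, Cacng3, Gem, Camk2b, Stim1, Atp2b2 and Itpr3, with Snap25 and Atp2a3 for deficient against wild type) had log2 differences of -0.83 to 0.56. The list medians for deficient against wild type were 0.041 for beta and gamma subunits, -0.076 for modulators and -0.11 for stores, pumps and entry (log2), against 0.0056 over all genes.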

How the data were processed

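The authors deposited raw UMI counts of 27998 genes in 21685 cells as 1 table, in which the cell names end in the mouse number, matched to the labels. Per the submitters' processing notes the tools were bcl2fastq 2.17.1.14, Cell Ranger 2.0.1, Seurat 2.3.0 and limma 3.32.10 on mm10, and per the labels' protocols the libraries were 10x 3′ v2. No source used here says how cells were selected. The cell limits were a minimum of 500 genes and a maximum of 20% mitochondrial UMIs (21658 kept), and 634 (2.93%) were removed as doublets by the scrublet method of scanpy 1.11.5, marking the highest scores at 0.8% per 1000 cells in each mouse. Clusters (Leiden, resolution 2, igraph 0.11.9) left out calcium channel genes. UMIs were summed per mouse over neurons and gated classes, and tested with edgeR 4.0.16 (TMM, low-count filter, quasi-likelihood F test) in R 4.3.3, all 6 mice in 1 fit with 1 mean per group, or class with mouse as a term, with Benjamini-Hochberg adjustment over all genes and a threshold of 0.05. Each mouse was 1 replicate. With 2 mice per group, p rests on a spread for each gene, estimated over all groups and drawn towards that of other genes. The common value over genes was 12.4% as a biological coefficient of variation in neurons. Alternatives were RLE factors, no filter, DESeq2 1.42.0, limma-voom 3.58.1, a sex term, leaving out single mice, keeping doublets, stricter cell limits, thinning, and clusters in place of gates. The scripts were tested on simulated data. All 10 members were named, up to 2 genes of each list with the smallest p in a comparison, and the 2 genes most like each member over class means. Members, lists, gates and tests were chosen with earlier results of these data known.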

Additional observations from a re-analysis of the deposited data

Results flagged for a closer look

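Cacna1c had diet differences of opposite sign in the Kit and Fgg classes, and the difference between these 2 classes was not tested. In the Kit class it stood at 19.3 and 23.0 CPM in deficient mice, 45.0 and 50.2 CPM in supplemented mice and 26.9 and 33.3 CPM in wild type mice, and the deficient minus supplemented log2 difference was -1.12 ± 0.36 (SE, 2 mice each). In the Fgg class it stood at 72.7 and 64.5 CPM in deficient mice, 44.1 and 55.6 CPM in supplemented mice and 74.3 and 65.3 CPM in wild type mice, and the same difference was 0.38 ± 0.40. Both deficient mice were below both supplemented mice in the Kit class and above both in the Fgg class. For genes with 100 or more UMIs in a class, these 2 groups did not overlap in 31.0% of all cases. Neither difference of Cacna1c passed the test (adjusted p = 0.923 and 0.99988, edgeR). Under clusters in place of gates the Kit value was -0.45. Opposite directions were looked for in the member and class with the smallest p in each of the 3 comparisons, against classes with a mean of 10 CPM or more.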

How the results depend on the processing

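The count of members called between groups was 0 in all 3 comparisons under every alternative run. The highest tested class of each member was the same in clusters made without channel genes. These clusters hold the same cells and were named by the gates, so they are no independent check. In the Fgg cluster 61.1% of gated cells were of the Fgg class. By the share of cells with a UMI at a fixed depth the highest tested class was the same for 9 of 10, and that of Cacna1d moved to Calb1. It changed with 1 mouse left out for Cacna1b (without 698), Cacna1c (without 654, 657 or 698) and Cacna1d (without 670 or 698). Without the low-count filter 74, 115 and 24 of 19330 genes were called over neurons for deficient against wild type, supplemented against wild type and deficient against supplemented, none of them a member. Of 15 group values followed through 214 alternative values, 194 kept their direction and side of the threshold. Near 0, the deficient minus wild type values over all neurons changed sign (log2). With 1 mouse left out Cacna1a ran from -0.28 to 0.077, Cacna1b ran from -0.10 to 0.050, Cacna1d ran from -0.22 to 0.20 and was -0.024 with doublets kept, -0.24 thinned, Cacna1h ran from -0.059 to 0.30. Likewise Cacna1i ran from -0.065 to 0.35, Cacna2d1 ran from -0.31 to 0.10, Cacna2d2 ran from -0.043 to 0.016 and was 0.027 thinned, Cacna2d3 ran from -0.063 to 0.053 and was -0.0057 with RLE size factors, -0.0055 with no low-count filter, -0.0058 with DESeq2. Of 67 called class values followed through 995 alternatives, 948 held and 40 no longer passed. Taken against the summed other classes, values changed sign: -0.053 for Cacna1b in Th, -0.15 for Cacna1h in Adcyap1, -0.63 for Cacna1h in Kit, -0.040 for Cacna1h in Calb1, -0.13 for Cacna2d1 in Mrgprd, -0.055 for Cacna2d1 in Mrgpra3, -0.46 for Cacna2d1 in Sst (log2), and by construction that setting weights classes by their UMIs in place of equally. That setting called 8 members in Pvalb and 8 in Ntrk2 (5 each against the mean of the other classes). Thinning called 4 in Sst and 3 in Pvalb, against 7 and 5. With 1 mouse left out the counts ran from 4 to 7 in Sst and from 3 to 5 in Pvalb, lowest without wild type mouse 698, and the cause was not tested. They ran from 4 to 6 in Th and from 5 to 6 in Kit, Mrgpra3, Ntrk2 and Ntrk3. In Adcyap1, Calb1, Fgg and Mrgprd they did not change. Depth limits Cacna1d (200 UMIs in neurons), Cacna1e and Cacna1i outside their classes. No paired analysis was possible because the groups share no replicate number. With sex as a term, 0 members were called in each comparison.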

Other observations

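The Th class spanned several clusters of cells made without calcium channel genes, and the 2 largest differed in their T-type pores. In cluster 0 (1382 cells) Cacna1i stood at 109 and 59.4 CPM in deficient, 96.2 and 78.9 CPM in supplemented and 74.6 and 58.4 CPM in wild type mice. In cluster 13 (1088 cells) it stood at 37.0 and 31.0 CPM in deficient, 39.1 and 47.9 CPM in supplemented and 33.4 and 44.7 CPM in wild type mice. Every mouse had more in cluster 0, by ranges that did not overlap. Cacna1h likewise stood at 40.7 and 35.6 CPM in deficient, 50.8 and 45.9 CPM in supplemented and 39.4 and 27.7 CPM in wild type mice in cluster 0, against 26.7 and 16.4 CPM in deficient, 17.4 and 24.8 CPM in supplemented and 12.8 and 12.0 CPM in wild type mice in cluster 13. Ceacam10, a cell adhesion gene of the carcinoembryonic antigen family, ran the other way, at 35.9 to 61.4 CPM in cluster 0 and 239.6 to 341 CPM in cluster 13. These 2 clusters were chosen by size after the values were seen, and no test was made.

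Across the 13 class means of log2(CPM + 1), with 8005 genes compared, the genes most like each member were named as a description with no p, over classes that share libraries. They were Megf9 (r = 0.97) and Nckap1 (r = 0.95) for Cacna1a, Ifi35 (r = 0.93) and Ppfia2 (r = 0.92) for Cacna1b, and Zbtb20 (r = 0.96) and Pnp (r = 0.95) for Cacna1c. For Cacna1e they were Syt16 (r = 0.99) and Slc5a7 (r = 0.98), for Cacna1h Prkar1a (r = 0.92) and Gabrb1 (r = 0.86), and for Cacna1i Ceacam10 (r = 0.97) and Wfdc2 (r = 0.88). For Cacna2d1 they were Ipo8 (r = 0.92) and AW549877 (r = 0.90), for Cacna2d2 2810001G20Rik (r = 0.92) and Ncoa7 (r = 0.91), and for Cacna2d3 Med27 (r = 0.88) and Gtf2e2 (r = 0.85). For Cacna1d, counted at few UMIs, they were Ormdl3 (r = 0.91) and Slc38a1 (r = 0.91). Ceacam10, the gene most like Cacna1i across classes, stood lower in the Th cluster with more Cacna1i.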
